A study of Drosophila melanogaster with 4 samples.

Results

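Glutathione transferases and UDP-glycosyltransferases are the conjugating enzymes of detoxification, and their response was followed in heads of Drosophila melanogaster fed tetraethylammonium chloride (TEA), a blocker of potassium channels. The members were all probes whose gene symbol in the platform annotation starts with GstD, GstE, GstO, GstS, GstT, GstZ or Ugt followed by a number or letter code. These were 40 probes for 35 genes, of 13824 probes on the array and 7558 that name exactly 1 gene. They divide into 28 glutathione transferase probes for 23 genes and 12 glycosyltransferase probes for 12 genes. The TEA group consisted of unmated male Oregon-R flies, a wild-type strain, aged 3 to 4 days at the start and kept for 7 days on food with 16 mg/ml TEA. The control group consisted of males of the same strain kept on normal food for the same time, with 30 flies per vial in both groups. The age label is 3 to 4 days for all pools, but the growth text of replicates 1 and 2 gives 2 to 3 days on normal food before treatment for the control flies and 3 to 4 days for the TEA flies. The 4 biological replicates had 1 cDNA array each, on which RNA from pooled TEA heads and pooled control heads was hybridised together in opposite dyes. TEA carried Cy5 in replicates 1 and 2 and Cy3 in replicates 3 and 4. The array held 2 neighbouring spots per probe.

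Glutathione transferases join the tripeptide glutathione to reactive, fat-soluble compounds and so make them soluble and ready for export. In insects the delta (GstD) and epsilon (GstE) classes are large, clustered gene families known for their part in insecticide resistance, and the omega, sigma, theta and zeta classes are smaller and shared with other animals. UDP-glycosyltransferases carry out a parallel reaction and transfer a sugar, mostly glucose in insects, from a UDP-sugar to a small acceptor. In the fly head, members of both families are known from sensory organs such as the antennae.

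The values are log2 ratios of the 2 dyes, already normalised and filtered by the authors, so that a spot that failed their filters is empty. No label states the direction of the ratio. Cy5 over Cy3 is the likely reading, because the design text writes the scanner wavelengths in that order and Cy5 is channel 1 on every array, and replicates 3 and 4 were therefore multiplied by -1 to give TEA over control. If the ratio runs as Cy3 over Cy5, every sign, direction and order given here turns round and the p-values stay as they are. The arrays held values for 6252, 6212, 5913 and 5445 of 27648 spots in replicates 1 to 4. After turning, the median of the tested probes was -0.09, -0.08, 0.24 and 0.06 in replicates 1 to 4, so the arrays with TEA in Cy3 sat higher. Turned values of tested probes had a Spearman correlation of 0.457 between replicates 1 and 2 and 0.34 between 3 and 4. Across the orientations it was -0.002 (1 and 3), -0.171 (1 and 4), 0.238 (2 and 3) and -0.01 (2 and 4). The arrays thus shared little across the dye swap, and each mean joins both orientations. As a check of the tissue, 4 of 7 photoreceptor markers named on the array were measured on 3 or more arrays (Arr1, trpl, inaD and rdgA), as were 1 of 4 glial, 3 of 6 antennal and 5 of 10 head fat body markers. None of the 3 neuronal markers on the array and none of the 2 Malpighian tubule markers had as many values. Markers of muscle (3 of 5), haemocytes (1 of 6), gut (1 of 3) and testis (1 of 4, Act88F, also on the muscle list) were measured too. Of all probes that name 1 gene, 19.1% were measured on 3 or more arrays. These counts alone do not single out the head. A ratio carries no level, and in whole heads fewer cells of a type and less RNA per cell cannot be told apart.

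The first result is which family members could be measured at all. None of the 12 glycosyltransferase probes had a value on any of the 4 arrays, whereas 7 of the 28 glutathione transferase probes were measured on 3 or 4 arrays. The background share was 22.8% of all probes and 19.1% of probes that name 1 gene. The glycosyltransferases without a value were Ugt35A1, Ugt35D1, Ugt36D1, Ugt36F1, Ugt37A1, Ugt37B1, Ugt37E1, Ugt49B1, Ugt301D1, Ugt305A1, Ugt316A1 and Ugt317A1. The response to TEA of the 2 families could therefore not be compared, because every value belonged to the glutathione transferases. An empty cell in this table can be a dim spot, a saturated spot, an uneven spot or a flagged spot. A minimum of 3 replicates is also among the authors' settings, so a probe seen on fewer arrays may be empty as well. Which of these applied was not tested.

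Within the glutathione transferases, values came from the delta and epsilon classes only. In the epsilon class 4 of 8 probes had values on at least 3 arrays, and they represent GstE2, GstE12, GstE13 and GstE14. The 4 empty epsilon probes were those for GstE3 and GstE11 and both probes for GstE1. In the delta class 3 of 14 probes had values, and they represent GstD1, GstD5 and GstD9. GstD1 and GstD5 are each covered by 2 probes, of which 1 had values on all 4 arrays and the other on none, so the paired probes of these genes differed in detection. The probes for GstD2, GstD3, GstD4, GstD6, GstD8, GstD10 and GstD11 were empty, as were those for the omega genes GstO1 and GstO3, the theta genes GstT3 and GstT4 and the zeta genes GstZ1 and GstZ2. No probe carried a sigma-class symbol. No member had values on only 1 or 2 arrays. Few probes of the whole table had: 3215 of 13824 had a value on any array, and 3150 had values on at least 3. The minimum of 3 arrays used here could thus leave out little.

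**Figure D1:**
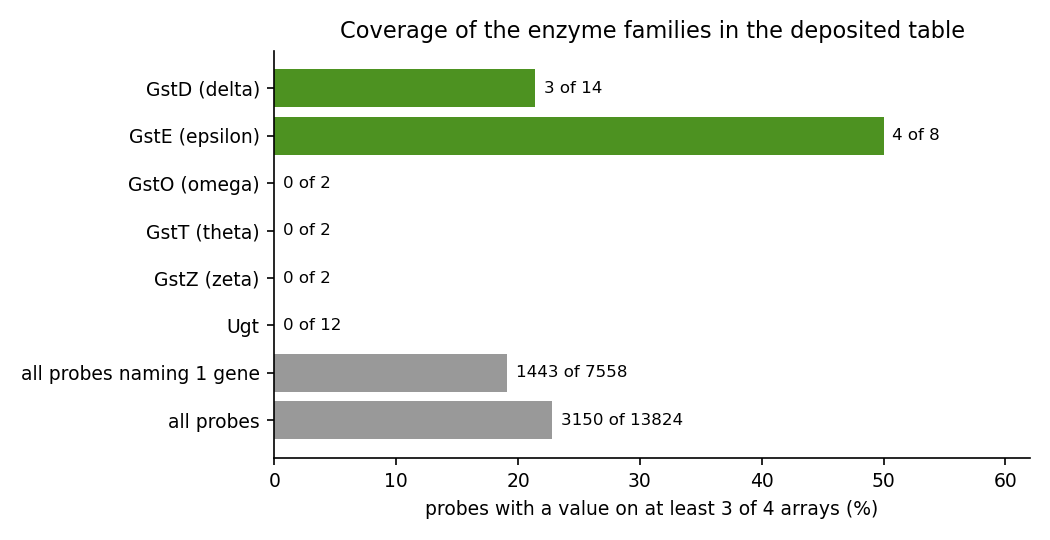
Share of probes measured on 3 or more of the 4 arrays (x axis, percent) by enzyme class, with the number of probes beside each bar. The epsilon class has values for 4 of 8 probes and the delta class for 3 of 14, while the 12 Ugt probes have none, against 19.1% of all probes that name 1 gene.

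The RefSeq annotation of the Release 6 assembly lists 35 glutathione transferases and 35 glycosyltransferases under these symbols, of which 23 and 12 were named on the array. All 35 member genes matched that annotation. It places 11 delta genes in 1 run of neighbouring genes, in the order GstD10, GstD9, GstD1, GstD2, GstD3, GstD4, GstD5, GstD6, GstD7, GstD8 and GstD11, with 1 non-coding gene after GstD1 and 1 other coding gene before GstD11. The measured GstD9 and GstD1 are direct neighbours there. GstD5 lies further along, with the empty GstD2, GstD3 and GstD4 before it and the empty GstD6 after it. Delta genes resemble each other in sequence, so a long cDNA probe for 1 of them may also bind the others, and the part of such binding in the values was not tested.

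TEA over control was then tested for the measured members, with the spread and the multiple-testing adjustment taken from all 3150 probes measured on 3 or more arrays. No member passed: 0 of 7 glutathione transferase probes had a limma adjusted p under 0.05, against a background of 0.635% (20 of 3150 probes), and 1 of 7 had an unadjusted p under 0.05, against 8.98% of all tested probes. The 7 mean log2 ratios lay between -0.15 and 0.35, with 3 above and 4 below 0 (55.8% of all tested probes were above 0). Their median was -0.01, beside 0.03 over all tested probes. All 7 unadjusted 95% intervals lay within a log2 change of 1 in either direction, that is within a 2-fold change. The share of all tested probes with such an interval was not computed, so this is no trait of the family. The median SE was 0.17 over the 7 probes and 0.16 over all tested probes. Because replicates are pools, these errors measure the spread between pools on different arrays.

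**Figure D2:**
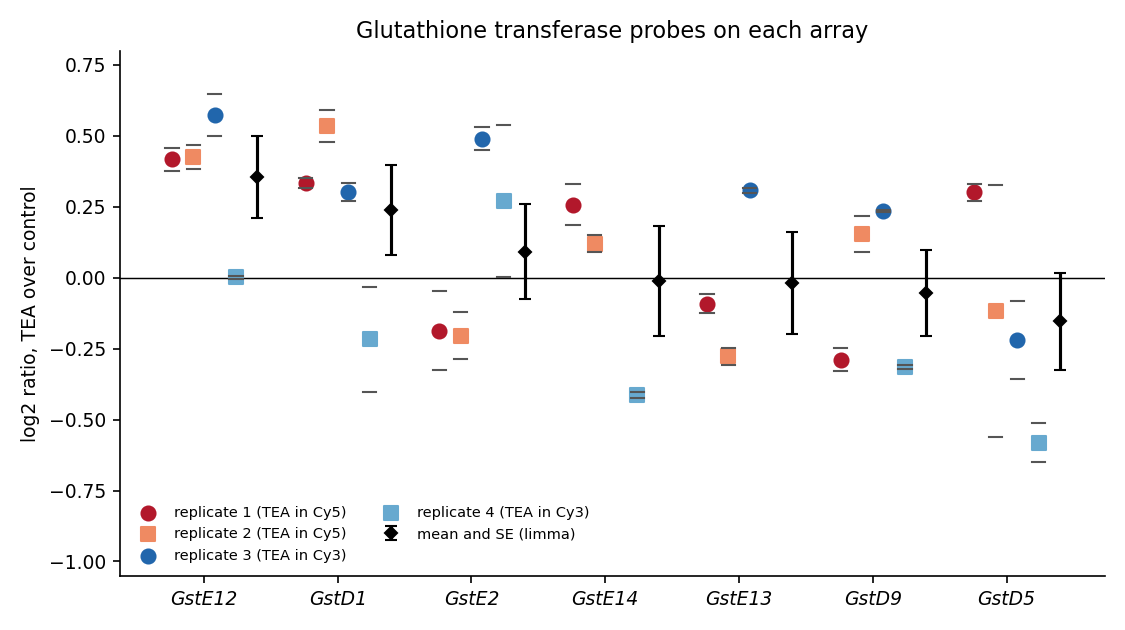
Log2 ratio of TEA over control (y axis) for each measured glutathione transferase (x axis). Coloured points are the 4 arrays (red shades with TEA in Cy5, blue shades with TEA in Cy3), short grey lines the 2 duplicate spots, and black diamonds the mean with its standard error from limma. GstE12 has no array below 0 and lies at 0.0015 in replicate 4, and the other 6 genes have arrays on both sides of 0.

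In the epsilon class GstE12 had the largest mean of the 7 with the ratio read as Cy5 over Cy3 (0.35), and the lowest with it read as Cy3 over Cy5 (-0.35, with GstD5 then highest at 0.15). Its log2 ratios of TEA over control were 0.417, 0.4245, 0.575 and 0.0015 in replicates 1 to 4. Replicates 1 to 3 stood above 0, in both dye orientations, and replicate 4 stood at 0, with duplicate spots at 0.007 and -0.004. The mean was 0.35 ± 0.14 (SE, n = 4; limma unadjusted p = 0.0465, adjusted p = 0.551), a ratio of 1.28 with a 95% interval from 1.01 to 1.63. GstE12 was the only member with 1 sign on every array, which 18.4% of all tested probes had. Once each array was centred on its median, GstE12 in replicate 4 became -0.05, and no member had 1 sign on every array, against 22.8% of all tested probes. The size of its mean exceeded that of 83.0% of tested probes.

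GstE2 is another epsilon enzyme, from the main epsilon cluster. Its log2 ratios were -0.1865, -0.2045, 0.4905 and 0.27 in replicates 1 to 4, so the arrays with TEA in Cy5 were below 0 and those with TEA in Cy3 above it. The mean was 0.09 ± 0.17 (SE, n = 4; limma adjusted p = 0.919). In replicate 4 its duplicate spots disagreed, at 0.003 and 0.537.

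GstE14 is the epsilon enzyme known as Noppera-bo, which is needed for the making of the moulting hormone ecdysone in larvae. It had log2 ratios of 0.2575 and 0.1205 in replicates 1 and 2, no value in replicate 3 and -0.4125 in replicate 4. Its arrays split by dye in the opposite way to GstE2, and the mean was -0.01 ± 0.19 (SE, n = 3; limma adjusted p = 0.988). GstE13 had -0.091 and -0.2765 in replicates 1 and 2, 0.3075 in replicate 3 and no value in replicate 4. It split by dye in the same way as GstE2, with a mean of -0.02 ± 0.18 (SE, n = 3; limma adjusted p = 0.983). For these 2 genes with 3 arrays a dye effect does not cancel in the mean.

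In the delta class GstD1, an abundant enzyme known to detoxify DDT, had log2 ratios of 0.333, 0.5345, 0.3035 and -0.217 in replicates 1 to 4. It was above 0 on 3 arrays and below 0 on replicate 4. That was also the lowest array for GstE12, GstE14, GstD9 and GstD5, so for every member measured there except GstE2. The mean was 0.24 ± 0.16 (SE, n = 4; limma adjusted p = 0.791), a ratio of 1.18 with a 95% interval from 0.90 to 1.54. Its duplicate spots in replicate 4 were -0.401 and -0.033, so that value rested on spots that differed by 0.368.

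GstD9, the neighbour of GstD1, had log2 ratios of -0.289, 0.1525, 0.236 and -0.3155 in replicates 1 to 4. Each dye orientation held 1 array above and 1 below 0, and the mean was -0.05 ± 0.15 (SE, n = 4; limma adjusted p = 0.957). GstD5 had 0.301, -0.1165, -0.22 and -0.5815, with only replicate 1 above 0. Its mean was -0.15 ± 0.17 (SE, n = 4; limma adjusted p = 0.872). In replicate 2 the duplicate spots of GstD5 stood at -0.56 and 0.327, so its sign on that array was not settled by the spots. The 3 measured delta genes thus had means on both sides of 0 within 1 gene cluster, and their intervals overlapped.

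**Figure D3:**
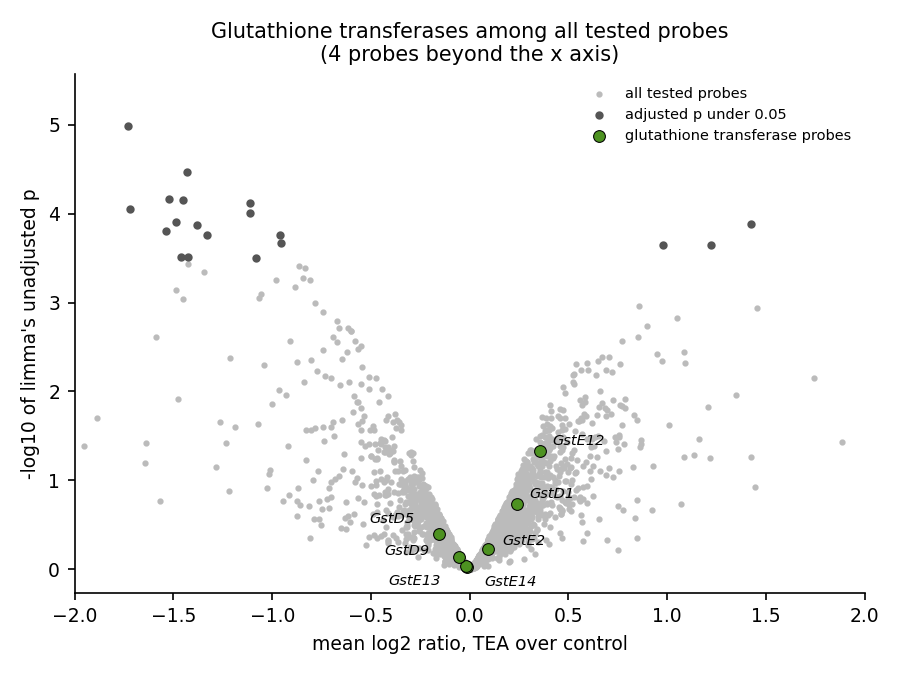
Mean log2 ratio of TEA over control (x axis) against -log10 of limma's unadjusted p (y axis) for all 3150 tested probes (grey), the 20 with an adjusted p under 0.05 (dark grey) and the 7 glutathione transferase probes (green, labelled). GstE12 at 0.35 stands highest among the 7, and all 7 lie away from the called probes; 4 probes lie beyond the x axis.

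The classes and the arrays were next described side by side, with no test, since the members were chosen as a group. The median of the measured glutathione transferases was 0.26, 0.12, 0.31 and -0.27 in replicates 1 to 4, against -0.09, -0.08, 0.24 and 0.06 over all tested probes. Members lay above the array's median in 4 of 7, 4 of 7, 4 of 6 and 1 of 6 cases. GstE12 was the highest member in replicates 1 and 3, GstD1 in replicate 2 and GstE2 in replicate 4. The lowest was GstD9 in replicate 1, GstE13 in replicate 2 and GstD5 in replicates 3 and 4. On every array the 7 probes spanned between 0.706 and 0.852 on the log2 scale. By class, the median of the means was -0.05 over 3 delta probes and 0.04 over 4 epsilon probes. Delta medians by array were 0.30, 0.15, 0.24 and -0.32, and epsilon medians 0.08, -0.04, 0.49 and 0.0015.

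The spread of the members was described between arrays and between duplicate spots, with unlike measures that do not divide the variance. The standard deviation over arrays had a median of 0.32 over the 7 probes, close to the 0.30 over all tested probes. The mean difference between duplicate spots had a median of 0.08 over the 7 probes, against 0.14 over all tested probes. It was largest for GstD5 (0.34) and GstE2 (0.26) and smallest for GstE13 (0.05). The standard deviations over arrays of these genes were 0.36, 0.34 and 0.30, in the same order.

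Because the dyes were exchanged between pairs of arrays, the 2 orientations were compared gene by gene. In the growth text the control flies had 2 to 3 days on normal food in replicates 1 and 2. They had 3 to 4 days in replicates 3 and 4, so a dye effect and an effect of this difference cannot be told apart. GstE2, GstE13 and GstE14 had 1 sign on their arrays with TEA in Cy5 and the other sign on those with TEA in Cy3. This was 3 of 7 members, against 29.5% of all tested probes, and it was again these 3 after centring, against 23.6%. A missing array counted as agreeing, so GstE13 and GstE14, with 3 values each, met this more easily than a probe with 4. Of the 3150 tested probes 2437 had all 4 values, so the shares are not alike. Among the 5 members with 4 values, only GstE2 split. In terms of the dyes, GstE2 and GstE13 had Cy5 below Cy3, and GstE14 Cy5 above Cy3, on every array that measured them, whichever pool carried Cy5. The difference of TEA in Cy5 minus TEA in Cy3 was -0.58 ± 0.20 for GstE2 (SE; limma unadjusted p = 0.0353, adjusted p = 0.294), 0.60 ± 0.26 for GstE14 (limma adjusted p = 0.341) and -0.49 ± 0.27 for GstE13 (limma adjusted p = 0.399). GstD5 differed by 0.49 ± 0.26 and GstD1 by 0.39 ± 0.26 (limma adjusted p = 0.365 and 0.451). GstE12 and GstD9 differed by 0.13 ± 0.26 and -0.03 ± 0.29. No member and no other probe passed this test (0 of 3150, with 506 at an unadjusted p under 0.05), with 0% as the background.

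**Figure D4:**
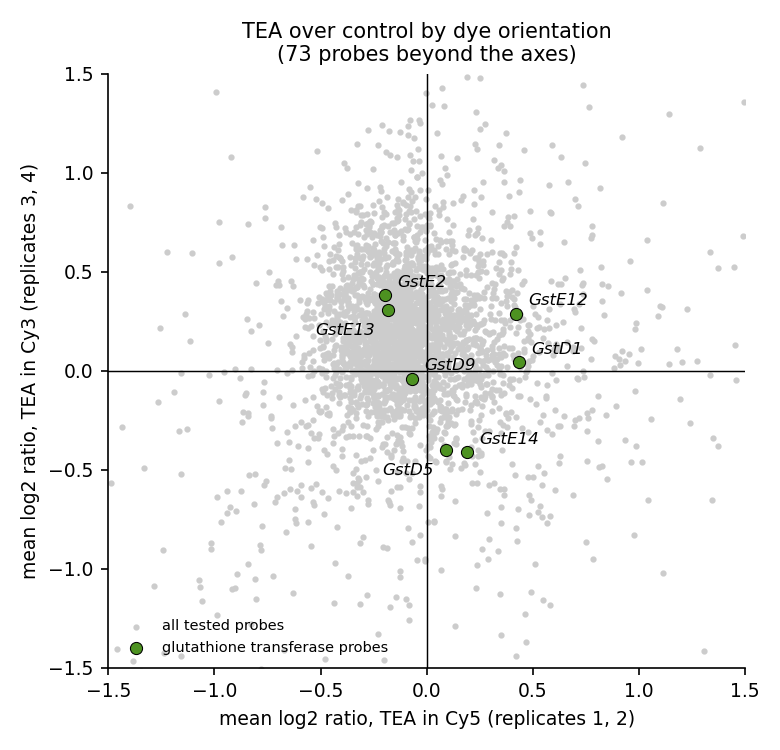
Mean log2 ratio of TEA over control with TEA in Cy5 (x axis, replicates 1 and 2) and with TEA in Cy3 (y axis, replicates 3 and 4) for all tested probes (grey) and the 7 glutathione transferase probes (green). GstE12 and GstD1 lie in the quadrant that is above 0 in both orientations, GstD9 lies near 0, and the other 4 lie in quadrants of opposite sign; 73 probes lie beyond the axes.

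A test per gene, over 1379 genes, left each member at its value, since only 1 probe per gene had values. None of the 7 genes passed, against 0.87% of all tested genes, and 1 of 7 had an unadjusted p under 0.05, against 8.92%. GstE12 had a gene-level limma adjusted p of 0.419 and GstD1 of 0.794. In a fit to replicates 1 and 2 only (TEA in Cy5), GstD1 at 0.43 ± 0.15 and GstE12 at 0.42 ± 0.15 passed per gene (limma adjusted p = 0.037 and 0.0437), where 12% of all genes were called. That fit gave both genes the same standard error, so these p-values do not rest on their own spread. In replicates 3 and 4 only (TEA in Cy3) their values were 0.04 ± 0.22 and 0.29 ± 0.22 (limma adjusted p = 0.944 and 0.514). On arrays of 1 orientation a dye effect and an effect of TEA cannot be told apart. The days on normal food given for the control flies also follow the orientations. The same 2 values gave limma adjusted p of 0.205 for GstD1 and 0.199 for GstE12 at the probe level.

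Among the 7 members, 2 had a tested probe at the next position of the table. The probe after GstE12, for CG6424, had a mean of 0.01 ± 0.13 (SE, n = 4), and the probe after GstE14, for ATPsynG, had -0.05 ± 0.15 (SE, n = 4). The value of GstE12 was thus not shared by its neighbour in the table. ATPsynG in replicate 4 was -0.45, close to the -0.41 of GstE14 on that array.

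Genes that work with these enzymes were sparsely measured. Of 42 symbols listed for glutathione supply and redox control, 15 were on the array and 3 were tested. None was past the threshold and all 3 were above 0, as were 55.5% of all tested genes. These were the mitochondrial peroxiredoxin Prx3 (0.18 ± 0.14), the glutathione-synthesis subunit Gclm (0.12 ± 0.16, n = 3) and the glutaredoxin Grx1 (0.05 ± 0.14). Prx3 had log2 ratios of 0.264, 0.183, 0.286 and -0.0055 in replicates 1 to 4. Replicate 4 was the lowest, as for Grx1 (-0.205) and for every member measured there except GstE2. Related genes outside the symbol rule, the eye-pigment omega transferase se and the transferase-domain zinc finger protein gfzf, had no value on any array.

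For UDP-sugar supply 2 genes were tested, and neither passed. UGP, which makes the UDP-glucose used by glycosyltransferases, had log2 ratios of 0.825, 0.8025, -0.294 and -0.6745 in replicates 1 to 4, so that its mean of 0.16 ± 0.22 (SE, n = 4) joined arrays of opposite sign. The UDP-sugar transporter frc stood at 0.03 ± 0.16. Of the regulators of detoxification 4 were tested and none passed, 2 above and 2 below 0. The small Maf protein maf-S, a partner of the stress factor Cnc, stood at 0.18 ± 0.14, the stress factor crc, the fly ATF4, at -0.22 ± 0.16 and foxo at 0.16 ± 0.18 (n = 3). maf-S was above 0 on all 4 arrays, at 0.0565, 0.172, 0.442 and 0.0575.

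Transporters that export conjugates were represented by 3 tested genes of 5 on the array, all 3 below 0. Of these CG31793, an ABC transporter, fell with TEA on the reading as Cy5 over Cy3 (-0.80 ± 0.17, SE, n = 4, adjusted p = 0.0352 by limma over genes). This was 1 of 3, against 0.87% of all tested genes. The list was chosen with earlier results of these data known, so the call says nothing about exporters as a group. CG7627 stood at -0.14 ± 0.15 and MRP, a carrier of glutathione conjugates, at -0.04 ± 0.14. The call of CG31793 is lost at -0.66 (limma adjusted p = 0.147) when replicate 2 is left out, at -0.96 (0.127) when replicate 4 is, and at -0.84 (0.1) with centred arrays. It is also lost where values on all 4 arrays are required (limma adjusted p = 0.0742). The value is 0.80 with the ratio read as Cy3 over Cy5 and -0.09 with the swapped arrays not turned, and the probe test gives an adjusted p of 0.226. Over all tested genes the median was 0.02 and 55.5% were above 0.

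Markers of head fat body, a tissue that expresses both enzyme families, are given beside these values. Of the 5 tested, 4 were above 0 and 1 passed at the gene level, against 55.5% above 0 and 0.87% called over all tested genes. This list too was chosen with earlier results of these data known, so these counts say nothing about the fat body as a tissue. The gene that passed was apolpp, the precursor of the lipid carrier lipophorin, at 0.78 ± 0.15 (limma adjusted p = 0.0222). Without replicate 4 apolpp stood at 0.84 (limma adjusted p = 0.133), at -0.11 with the swapped arrays not turned and at -0.78 with the ratio read as Cy3 over Cy5. Its 2 probes, at 1.05 and 0.52, did not pass on their own (limma adjusted p = 0.126 and 0.264). FASN1 stood at 0.45 ± 0.14, bgm at 0.33 ± 0.20, Yp2 at 0.05 ± 0.14 and Lsp2 at -0.0011 ± 0.14. The 3 antennal support markers stood at 0.22, 0.18 and 0.16 for Obp56d, Obp44a and Obp19d, and the glial Gs2 at 0.46 ± 0.14, none of them past the threshold. The photoreceptor arrestin Arr1 stood at 0.40 ± 0.15, with 0.132, 0.225, 0.401 and 0.836 in replicates 1 to 4 (limma unadjusted p = 0.0206, adjusted p = 0.385). The other tested markers lay between -0.19 for Mal-A2 of the gut list and 0.23 for Act88F, which stood on the muscle and testis lists. The part of any of these tissues in the glutathione transferase values was not tested.

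The signs rest on the direction of the ratio. Read as Cy3 over Cy5, the means of TEA over control were -0.35 for GstE12, -0.24 for GstD1, -0.09 for GstE2, 0.01 for GstE14, 0.02 for GstE13, 0.05 for GstD9 and 0.15 for GstD5, with the same p-values. With the ratio read as Cy5 over Cy3 but the swapped arrays not turned, the mean is a dye ratio and not TEA over control. GstE12 was then 0.07, GstD1 0.20, GstD9 -0.01, GstE13 -0.22, GstE2 -0.29, GstD5 0.25 and GstE14 0.26, and no member passed. GstE12 and GstD1 were above 0 in each of the 15 alternatives that kept the reading as Cy5 over Cy3. For the setting with the swapped arrays not turned, this is the sign of a dye ratio and not of TEA over control. The values lay between 0.07 and 0.47 for GstE12 and between 0.04 and 0.43 for GstD1. The 0.07 of GstE12 is that dye ratio, and its lowest value of TEA over control was 0.28, without replicate 3. Alternatives in filters, ceiling, eBayes, spots and the dye covariate returned the reported mean of both genes, so their sign could not change there.

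**Figure D5:**
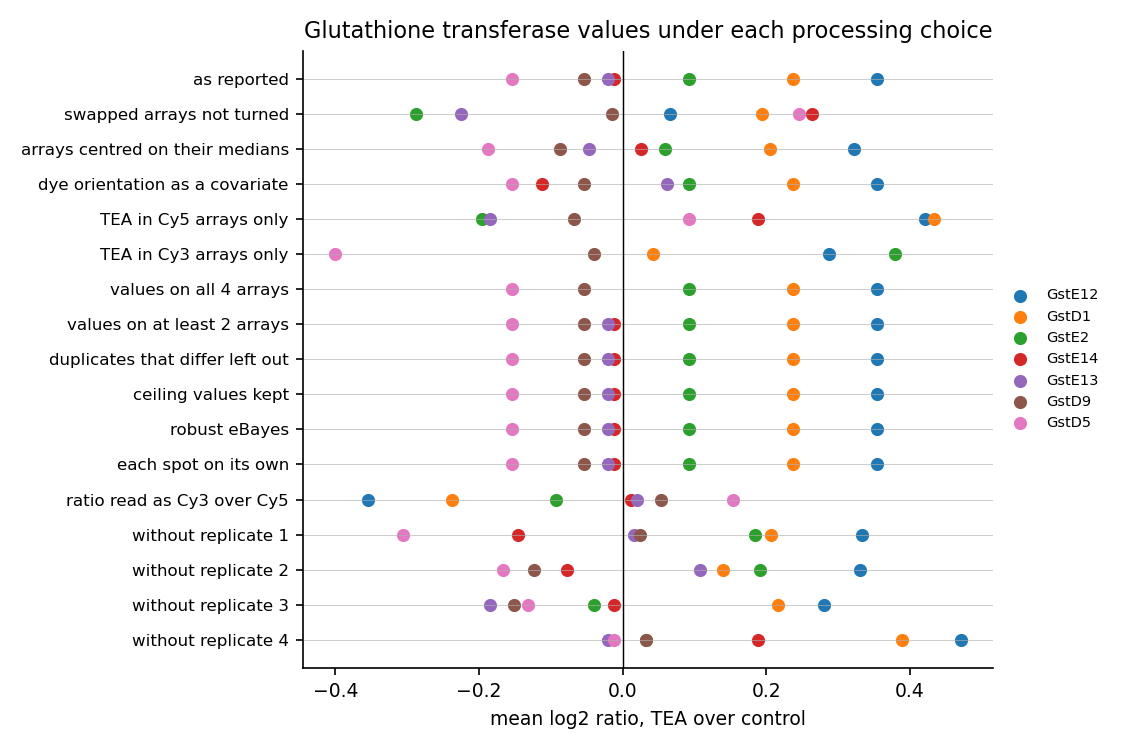
Mean log2 ratio of TEA over control (x axis) of the 7 glutathione transferases (colours) under each processing choice (rows, the reported setting on top). On the reading as Cy5 over Cy3, the row with the swapped arrays not turned gives a mean dye ratio and not TEA over control. GstE12 and GstD1 lie above 0 in the rows that read the ratio as Cy5 over Cy3, between 0.07 and 0.47 and between 0.04 and 0.43. The 0.07 of GstE12 is the dye ratio of the row not turned. Both genes lie below 0 (-0.35 and -0.24) in the row that reads the ratio as Cy3 over Cy5. GstE2, GstE13, GstE14, GstD5 and GstD9 lie on both sides of 0 across rows.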

How the data were processed

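The deposited values are log2 ratios of 2 dyes, 1 column per array. Per the labels' design text, the authors quantified images in GenePix Pro 6.0 and normalised in Acuity 4.0, leaving out dim spots (raw intensity below 100, or below 2 times background), and then removed spots that were saturated in 3% of pixels or more, flagged, uneven (R2 below 0.6) or weak (signal-to-noise below 3). A minimum of 3 replicates is also among the authors' settings. The log base follows from a ceiling of 16.61, the log2 of a ratio of 100000. The 8 ceiling values were set to missing, duplicate spots averaged, and replicates 3 and 4 sign-reversed. Symbols came from the platform annotation, updated through the RefSeq table by gene identifier. Probes and genes were tested with limma 3.58.1 in R 4.3.3 (intercept only, moderated by eBayes, two-sided, Benjamini-Hochberg over all features), and the dye orientations with a second coefficient. The tests were checked on simulated data with independent normal values and a common spread. The simulation for TEA held no dye or array effect, so it could not show how that test behaves where such effects are present. Alternatives covered turning, centring, dye, filters, spots, ceiling and each replicate left out. All members are named; of each partner list, the 3 with the smallest p. Members and lists were chosen with earlier results of these data known. No build is stated, so no coordinates are printed. The number of arrays limits the precision. A withdrawal period was not analysed here.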

Additional observations from a re-analysis of the deposited data

Results flagged for a closer look

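3 members had arrays of opposite sign in the 2 dye orientations, which also differ in the days on normal food given for the control flies. The difference of TEA in Cy5 minus TEA in Cy3 was -0.58 on the log2 scale for GstE2 (-0.20 against 0.38), 0.60 for GstE14 (0.19 against -0.41) and -0.49 for GstE13 (-0.18 against 0.31). None of these differences passed limma's test over all probes (adjusted p = 0.294, 0.341 and 0.399), and GstE13 and GstE14 had only 1 array with TEA in Cy3. No member measured on 4 arrays had an array set apart from the others by more than Dixon's 95% limit.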

How the results depend on the processing

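No member passed at the probe level under any of the 15 alternatives, each replicate left out included. At the gene level 2 members (GstD1 and GstE12) passed with TEA in Cy5 only, and none under the others. Of 101 member values under 15 alternatives, 87 kept their sign and 14 took the other sign, and the cause was not tested. These counts include the setting with the swapped arrays not turned, where the sign is that of a dye ratio and not of TEA over control. Alternatives in filters, ceiling, eBayes and spots returned the reported mean of each member they kept, so a kept sign there was fixed in advance. The dye covariate did the same for members measured on 4 arrays. The 15 alternatives keep the reading of the ratio as Cy5 over Cy3. With it read as Cy3 over Cy5, an alternative chosen after seeing the data, all 7 members took the other sign by construction (-0.354 for GstE12, -0.238 for GstD1, -0.092 for GstE2, 0.012 for GstE14, 0.02 for GstE13, 0.054 for GstD9 and 0.154 for GstD5), and no count of calls changed. With the swapped arrays not turned, which gives a mean ratio of Cy5 over Cy3, the log2 value was 0.246 for GstD5, 0.264 for GstE14 and -0.288 for GstE2. With TEA in Cy5 only the log2 ratio of TEA over control was 0.092 for GstD5, 0.189 for GstE14 and -0.196 for GstE2. GstE14 was 0.026 with centred arrays, and GstE13 was 0.062 with dye orientation as a covariate. Over fits that left out each replicate, GstD9 ranged from -0.151 to 0.033, GstE13 from -0.184 to 0.108, GstE14 from -0.146 to 0.189 and GstE2 from -0.04 to 0.191, with sign changes without replicates 1 and 4 (GstD9), 1 and 2 (GstE13), 4 (GstE14) and 3 (GstE2). GstE12 then ranged from 0.281 to 0.472 and GstD1 from 0.14 to 0.39, the highest without replicate 4. The median of the members, -0.01 as reported, lay between -0.04 (without replicate 3) and 0.11 (without replicate 2), within the spread of its array medians (SD 0.26). Glycosyltransferases had no value under any alternative.

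The counts over the whole table moved more. Against 20 called probes, limma called 0 with the swapped arrays not turned (353 at an unadjusted p under 0.05), with centred arrays (309), with a dye covariate (427), with TEA in Cy3 only (300) and with each spot on its own (497). It called 3 with TEA in Cy5 only, 31 with duplicates that differed by over 1 left out, and from 0 (without replicate 2, with 178 at an unadjusted p under 0.05, and without replicate 4, with 331) to 4 (without replicate 1) when a replicate was left out, with 1 without replicate 3. Against 12 called genes there were 0 with the swapped arrays not turned (245) and 5 with values on all 4 arrays. There were 93 with a dye covariate, 165 with TEA in Cy5 only and 99 with TEA in Cy3 only. When a replicate was left out, from 2 (without replicate 4) to 35 (without replicate 3) were called, with 32 without replicate 1. In the gene fits with a dye covariate, of 1 orientation, and without replicate 1 or 2, members with equally many values had the same standard error. Those p-values do not rest on each gene's own spread. For the dye orientation 0 probes were called (506 at an unadjusted p under 0.05), and from 0 to 1 (without replicate 4) when a replicate was left out. Signal over background is not part of the values, so a dim spot cannot be told from an uneven one.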
